A study of Homo sapiens with 4 samples.

Results

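The genes described here are 53 genes of Wnt and beta-catenin signalling, listed by name and grouped by role into ligands, receptors, Dishevelled adaptors, destruction complex, nuclear effectors, secreted inhibitors and feedback inhibitors. Of these, 52 were measured, by 65 probes, among 19090 genes and 28264 probes in all. TCF7 was not analysed here, because no probe of the table carried its symbol. The probes were read on 4 single-colour microarrays of TOV112D cells, an established cell line of human epithelial ovarian cancer. The 2 HD arrays held RNA from cells transfected with a plasmid that expresses HOXD10, a posterior HOX transcription factor, and the 2 ND arrays held RNA from control cells of the same line. The sources call these controls both mock-transfected and transfected with the empty plasmid. All cells came from this 1 line, and both arrays of a group carried the same sample name in the study's slide list, so whether they were separate cultures is not settled and the p-values reflect array-to-array spread that may be technical. Each value is a normalized intensity, the brightness of a probe after scaling between arrays, and a log2 fold change is the HD mean minus the ND mean of log2 intensities.

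Wnt proteins are secreted, lipid-modified ligands that bind Frizzled receptors together with the co-receptors LRP5 and LRP6. Without a ligand, a destruction complex built on APC and AXIN lets the kinases GSK3A and GSK3B mark beta-catenin, the product of CTNNB1, for degradation. With a ligand, Dishevelled proteins hold that complex at the membrane, beta-catenin enters the nucleus and, with TCF and LEF factors, switches on targets that include the pathway's own inhibitors. Some ligands, among them WNT5A and WNT11, are best known for signalling that does not run through beta-catenin. TOV112D is known to carry a CTNNB1 mutation that stabilises the protein.

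Higher in HD at the threshold of the test were 6 member probes, and lower were 0. They belonged to the receptors FZD8 and FZD6, the ligands WNT11 and WNT5A, the kinase GSK3B and the secreted inhibitor DKK2. The test was limma across all probes with Benjamini-Hochberg adjustment, at an adjusted p of 0.05. The 6 probes were 9.23% of the 65, against 6.65% of all probes called higher in HD, so the share of members called higher was near the background. Of all probes, 7.19% were called lower in HD, and of the members 0 of 65. At an unadjusted p under 0.05, 12 member probes (18.5%) were higher and 11 (16.9%) lower, against 16.2% and 19.4% of all probes, again near the background. The study's methods call a difference of 1 or more on the log2 scale in either direction with an unadjusted p under 0.05. By those criteria, applied here to limma's unadjusted p, 7 member probes were higher and 1 was lower. They took 6.11% of all probes higher and 6.27% lower. The study took its own p-values from its Rosetta Resolver workflow, so these counts are not its calls. The 2 HD arrays lay above both ND arrays for 18 member probes and below both for 24, or 27.7% and 36.9% of the members, against 24.9% and 34.8% of all probes. With 1 probe per gene, the brightest, 4 of 52 member genes were called higher and 0 lower, against 6.67% and 7.97% of all genes, and the member genes had a median log2 fold change of -0.01, against -0.05 for all genes. When any 1 of the 4 arrays was left out, no probe of the table had an adjusted p under 0.05. The smallest adjusted p over all probes was then between 0.0665 and 0.127. Such a fit has 1 residual degree of freedom and takes the lone array of a group to vary like the other group, and the log2 fold change of FZD8 stayed between 2.55 and 2.82 in it.

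**Figure D1:**
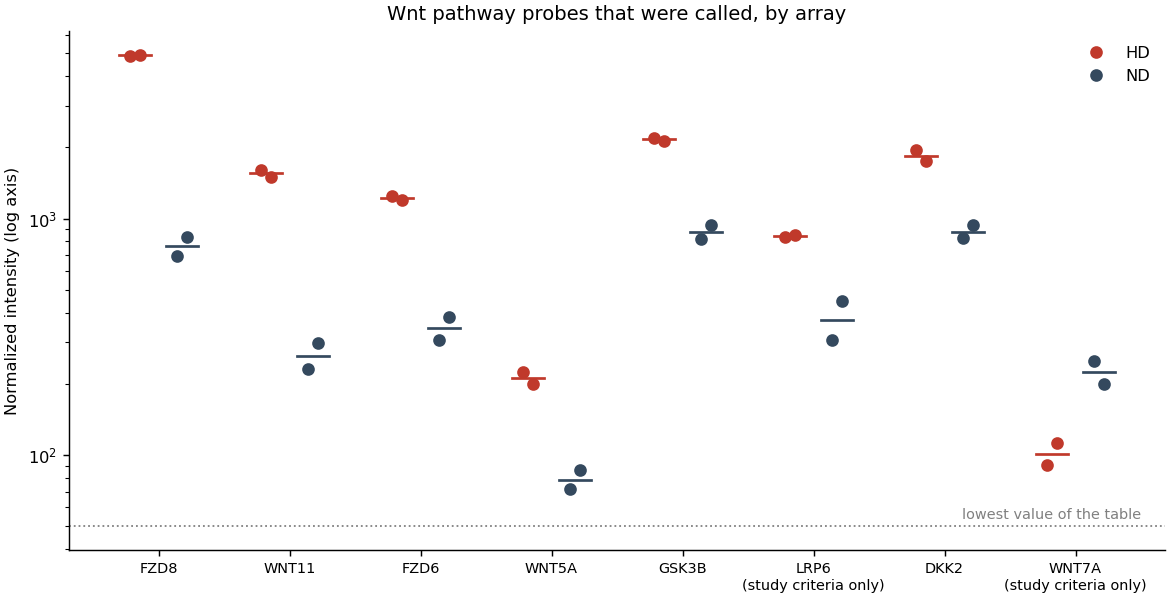
Normalized intensity on a log axis for each Wnt pathway probe that was called, with HD arrays in red, ND arrays in dark blue and a line at the mean of each group's log2 values (2 arrays per group). For 7 probes both HD arrays lie above both ND arrays, and for WNT7A both lie below. The LRP6 and WNT7A probes met only the study's fold and unadjusted p criteria, applied to limma's p.

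Promoter sequence is shown for the called genes that RefSeq's promoter table held, so that it can be read beside their values. The table (GRCh38.p14) runs from 250 bases before to 50 after each start site, and 36 of the 53 listed genes had 44 promoters in it. FZD6, WNT11 and DKK2 had no entry. FZD8 starts on the minus strand of chromosome 10, and its window, chr10:35642247-35642546, is given with TATAAA, the letters of a TATA box, in capitals. WNT5A has separate start sites on the minus strand of chromosome 3. The upstream window, chr3:55487257-55487556, is given with TAATTA, a core read by many homeodomains, in capitals, and the downstream window, chr3:55481349-55481648, with TCGTAAA, a sequence of posterior HOX proteins, in capitals. GSK3B, at chr3:120094398-120094697 on the minus strand, held none of the motifs searched.
FZD8: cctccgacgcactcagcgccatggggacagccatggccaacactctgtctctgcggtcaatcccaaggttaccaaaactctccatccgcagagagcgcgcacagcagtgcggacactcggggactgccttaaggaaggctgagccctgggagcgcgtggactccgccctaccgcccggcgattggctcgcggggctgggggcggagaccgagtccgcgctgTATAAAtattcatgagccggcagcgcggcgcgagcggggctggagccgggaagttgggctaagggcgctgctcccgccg
WNT5A upstream start: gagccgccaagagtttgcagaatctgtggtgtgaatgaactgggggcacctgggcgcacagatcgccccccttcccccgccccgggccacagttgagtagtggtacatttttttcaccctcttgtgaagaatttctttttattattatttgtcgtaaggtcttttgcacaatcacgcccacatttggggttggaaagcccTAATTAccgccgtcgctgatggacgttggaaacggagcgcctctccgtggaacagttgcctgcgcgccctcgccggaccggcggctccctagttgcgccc
WNT5A downstream start: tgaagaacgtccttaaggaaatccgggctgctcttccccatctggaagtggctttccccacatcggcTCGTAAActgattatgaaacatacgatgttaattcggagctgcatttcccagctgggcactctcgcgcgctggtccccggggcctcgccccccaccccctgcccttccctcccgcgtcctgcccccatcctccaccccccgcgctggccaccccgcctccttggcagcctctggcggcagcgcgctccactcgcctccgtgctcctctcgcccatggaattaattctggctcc
GSK3B: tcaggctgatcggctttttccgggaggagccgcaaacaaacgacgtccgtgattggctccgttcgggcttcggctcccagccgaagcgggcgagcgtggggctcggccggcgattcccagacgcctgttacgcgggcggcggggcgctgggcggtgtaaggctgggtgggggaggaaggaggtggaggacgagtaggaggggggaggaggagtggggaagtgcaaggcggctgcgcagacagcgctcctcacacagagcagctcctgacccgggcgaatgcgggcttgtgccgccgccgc
Both strands were searched for 7 motifs, and no matches overlapped each other. TCGTAAA stood in 0.541% of the 35116 promoters and, of the members, only at the downstream start of WNT5A. TAATTA stood in 4.84% of promoters and, of the members, only at the upstream start of WNT5A. TATAAA stood in 11.5% and, of the members, at FZD8, WNT5B, DKK1 and TCF7. Of the TCF/LEF motifs, CTTTGTT (5.2% of promoters) stood at WNT3, DKK1, TCF7 and TCF7L2, CTTTGAA (4.43%) at DKK1, and CTTTGAT (2.62%) at no member promoter. CAATAAA, a further posterior HOX motif (4.0%), stood at none. The 4 windows shown held 67.0%, 56.3%, 63.7% and 69.3% G and C in the order printed, against a median of 58.7% over all promoters. A match describes letters in a window, and binding was not measured. Which start site the WNT5A probes report is not known here.

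Among the ligands, 2 of 20 probes rose, and their median log2 fold change was 0.00. WNT11, a ligand of cell movement in development, had intensities of 1600.4 and 1503 in HD, against 232 and 297 in ND. The arrays of the groups were far apart, with a log2 fold change of 2.56, or 5.91-fold (SE 0.164 on the log2 scale, adjusted p = 0.0358, n = 2 each). WNT5A, the ligand most often tied to beta-catenin-independent signalling, was read by a pair of probes. Its dimmer probe had 224 and 199.8 in HD, against 71.7 and 86.5 in ND (log2 fold change 1.42, SE 0.141, adjusted p = 0.0430). Its brighter probe had 411 and 339.8 in HD, against 225 and 263 in ND, and did not pass (0.62, adjusted p = 0.120). The HD arrays were above the ND arrays on both probes. WNT5B, the close paralogue of WNT5A, had a log2 fold change of 0.17.

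WNT7A met the study's criteria in the lower direction, with 90.9 and 112 in HD and 251 and 199 in ND (-1.15, adjusted p = 0.0712). No other member probe met them in that direction. WNT3, a ligand of the beta-catenin route, had 740.3 and 610.4 in HD, against 359 and 396 in ND (0.83, adjusted p = 0.0679). WNT6 and the brighter WNT16 probe, both lower on the HD arrays without overlap, stood at -0.89 and -0.91, and neither passed in the main fit. Some ligands passed under other settings. WNT3 was higher and WNT7A lower after quantile normalization, cyclic loess and 75th percentile scaling, and among probes above the lowest value on at least 2 arrays. The brighter WNT5A probe was higher and WNT6 lower under each of these but quantile normalization. WNT16 was lower under the last alone. WNT10B had 2169 and 1945 in HD and 1909.8 and 2246 in ND, so that the groups overlapped. WNT2, WNT3A, WNT4 (both probes), WNT7B (brighter probe) and WNT10A had log2 fold changes between -0.27 and 0.14. WNT1, WNT2B, WNT9A and the dimmer probes of WNT7B and WNT16 read 50, the table's lowest value, on each of the 4 arrays, and no fold can be given for them.

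Of the 16 receptor probes 2 rose, and the median was 0.07. FZD8 had the largest log2 fold change of the member probes. Its intensities were 4867 and 4924 in HD, against 695 and 838 in ND. The log2 fold change was 2.68, or 6.41-fold (SE 0.121 on the log2 scale, adjusted p = 0.0308). FZD6, a Frizzled known from planar cell polarity in mice, had 1239 and 1199 in HD, against 307 and 385 in ND (3.55-fold, log2 fold change 1.83, SE 0.148, adjusted p = 0.0394). On both genes the groups did not overlap. LRP6, a co-receptor needed for the beta-catenin route, met the study's criteria on its brighter probe alone, with 837 and 852 in HD and 307 and 449 in ND (1.18, adjusted p = 0.0882). Its dimmer probe had 312 and 256 in HD and 161 and 198 in ND (0.66, adjusted p = 0.136). Both LRP6 probes passed as higher after cyclic loess, with 75th percentile scaling and among probes above the lowest value on at least 2 arrays. LRP5, the paralogue, had 106 and 97.3 in HD and 80.2 and 100.3 in ND, with overlapping groups (0.18, adjusted p = 0.537).

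The other Frizzled genes did not pass in the main fit. FZD1 had 9611 and 9814 in HD and 8086 and 9548 in ND (0.14, and 0.41 after quantile normalization), and FZD7 had a log2 fold change of -0.24 (-0.10 after quantile normalization). The probes of FZD5 went opposite ways, -0.55 on the brighter and 0.49 on the dimmer, each without overlap of the groups. FZD3 was at 0.49, and FZD2, FZD4 and FZD10 lay between -0.26 and -0.13. FZD9, near the lowest value, had 50 and 57.5 in HD and 142 and 79.0 in ND (-0.98, adjusted p = 0.224). Some Frizzled probes passed under other settings. FZD7 was lower after quantile normalization (adjusted p = 0.0342) and FZD1 higher after cyclic loess (adjusted p = 0.0315). The brighter FZD5 probe was lower after quantile normalization, cyclic loess and 75th percentile scaling, and its dimmer probe higher after the latter 2. FZD5 and FZD9 were lower among probes above the lowest value on at least 2 arrays. LGR4 and LGR5, receptors of the R-spondins, were at the lowest value on all arrays, so that LGR5, also a beta-catenin target and a stem cell marker of the gut, had no reading on either side.

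**Figure D2:**
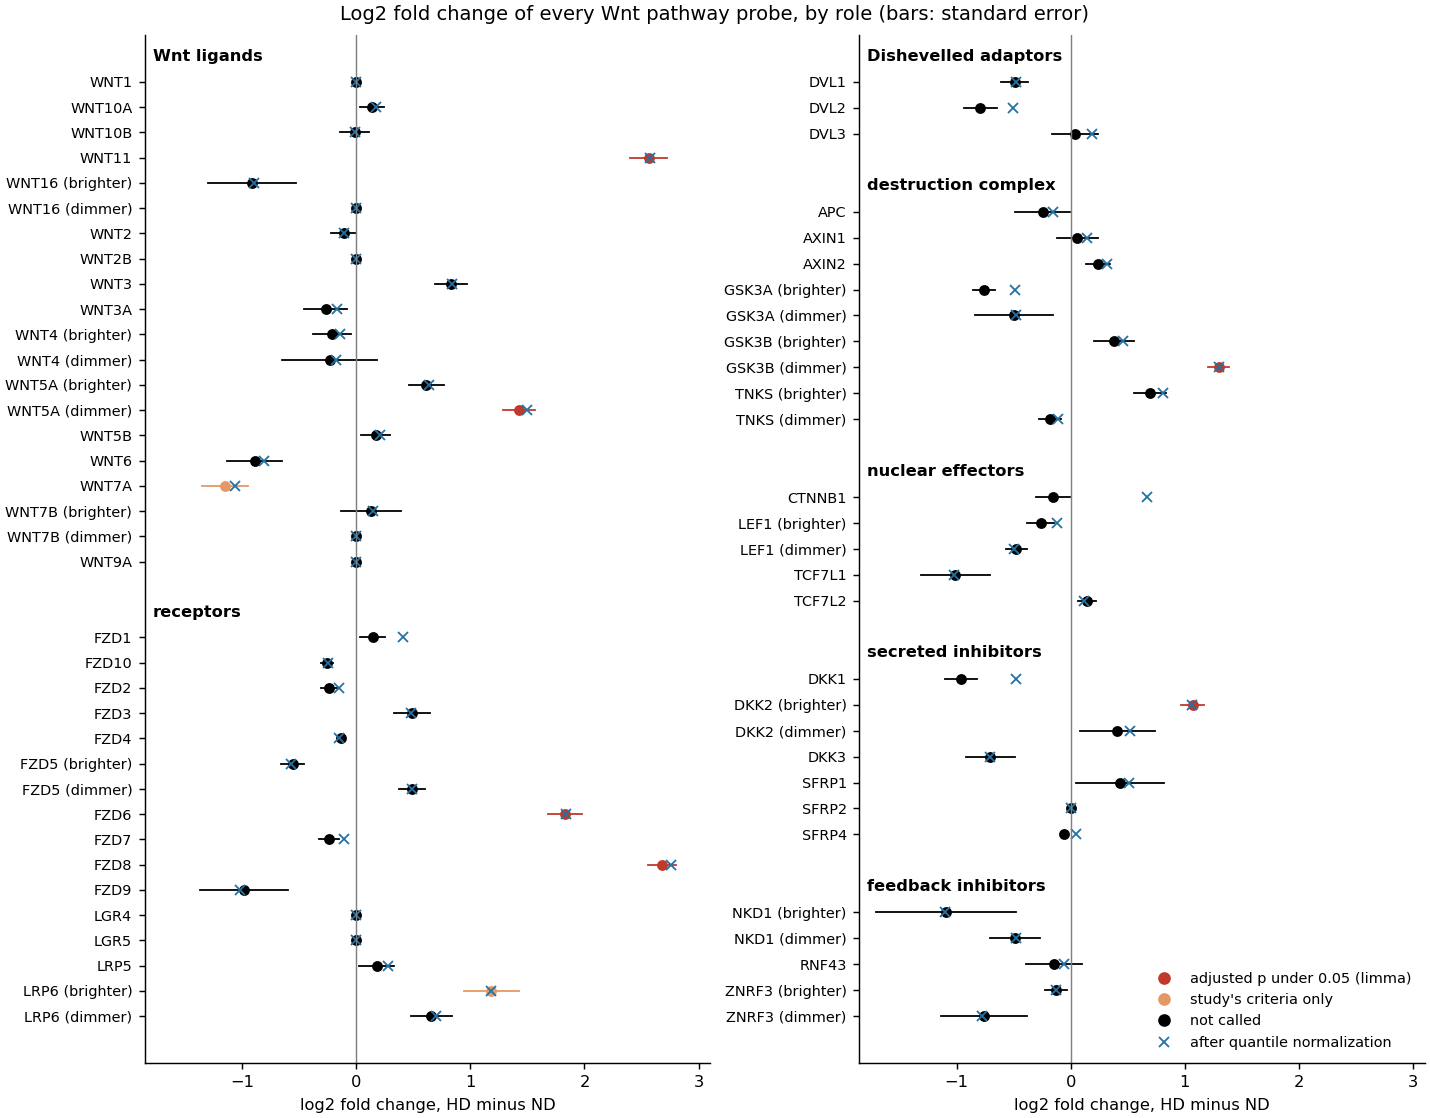
Log2 fold change (HD minus ND) of each of the 65 probes by role, with standard errors from limma as bars, and a cross for the value after quantile normalization. The 6 probes in red passed the adjusted p, and all 6 lie to the right of 0. CTNNB1 has its point at -0.16 and its cross at 0.67.

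The Dishevelled adaptors, which carry the signal from Frizzled, had 3 probes and none passed in the main fit. DVL2 had 8354 and 7696 in HD, against 12521 and 15351 in ND (-0.79, adjusted p = 0.0742), DVL1 a log2 fold change of -0.49, and DVL3 one of 0.04. DVL1 and DVL2 were lower on both HD arrays than on either ND array, while the groups overlapped for DVL3. All probes of DVL2's brightness, log2 intensity 13 to 14, had a median of -0.37, and DVL2 stood at -0.50 after quantile normalization and -0.41 after cyclic loess, passing the test under both.

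In the destruction complex, 1 of 9 probes rose, with a median of 0.06. It was the dimmer of the probes for GSK3B, with 2191 and 2127 in HD, against 821 and 941 in ND (1.30, SE 0.0905, adjusted p = 0.0368). The brighter GSK3B probe had 3802 and 3987 in HD, against 3417 and 2623 in ND (0.38, adjusted p = 0.271), so the probes of this gene differed in size and in call. GSK3A, the paralogous kinase, had 7657 and 8034 in HD, against 12387 and 14237 in ND, on its brighter probe (-0.76, adjusted p = 0.0506). Its dimmer probe had 223 and 237 in HD and 423 and 248 in ND (-0.50, adjusted p = 0.440). Both GSK3A probes were lower on the HD arrays, and both GSK3B probes higher. The brighter GSK3A probe lies in the same brightness range as DVL2 and stood at -0.48 after quantile normalization and -0.39 after cyclic loess. It passed as lower with 75th percentile scaling, with an intensity trend in eBayes and among probes above the lowest value on at least 2 arrays.

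No scaffold passed. APC had 108 and 124 in HD and 115 and 163 in ND (-0.24, adjusted p = 0.574). AXIN1 had 3669 on both HD arrays and 3065 and 4051 in ND (0.06, adjusted p = 0.942). Their groups overlapped. AXIN2, an AXIN paralogue and a target of beta-catenin in most cell types, had 4072 and 3527 in HD and 3082 and 3344 in ND, which did not overlap (0.24, adjusted p = 0.263). TNKS, a tankyrase that destabilises AXIN proteins, had 5128 and 5609 in HD and 2999 and 3648 in ND on its brighter probe (0.70, adjusted p = 0.0850). Its dimmer probe had a log2 fold change of -0.18. The brighter TNKS probe passed as higher after cyclic loess, with 75th percentile scaling and among probes above the lowest value on at least 2 arrays.

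No nuclear effector passed among 5 probes in the main fit. CTNNB1, beta-catenin itself, had 72408 and 66656 in HD and 69478 and 86178 in ND (-0.16, adjusted p = 0.563). The HD values lay below the higher ND array and on both sides of the lower one. Its direction depended on the scaling: after quantile normalization its log2 fold change was 0.67 (adjusted p = 0.0341), and after cyclic loess 0.64 (adjusted p = 0.0126). In the other fits it stayed below 0, with an adjusted p between 0.228 and 1.0. All probes of that brightness, log2 intensity 16 to 17, had a median log2 fold change of -0.93 as deposited. TCF7L1, the TCF factor best known as a repressor, had 1143 and 986 in HD, against 2669.9 and 1711 in ND (-1.01, adjusted p = 0.150). It passed as lower with 75th percentile scaling and among probes above the lowest value on at least 2 arrays. TCF7L2 had 1744 and 1548 in HD and 1478 and 1505 in ND (0.14, adjusted p = 0.350). LEF1 had 5114 and 4281 in HD and 5537 and 5699 in ND on its brighter probe (-0.26, adjusted p = 0.259, and -0.12 after quantile normalization), and 932 and 833 in HD and 1282 and 1171 in ND on its dimmer probe (-0.48, adjusted p = 0.0835). Both LEF1 probes and TCF7L1 were lower on the HD arrays without overlap, and TCF7L2 was higher.

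**Figure D3:**
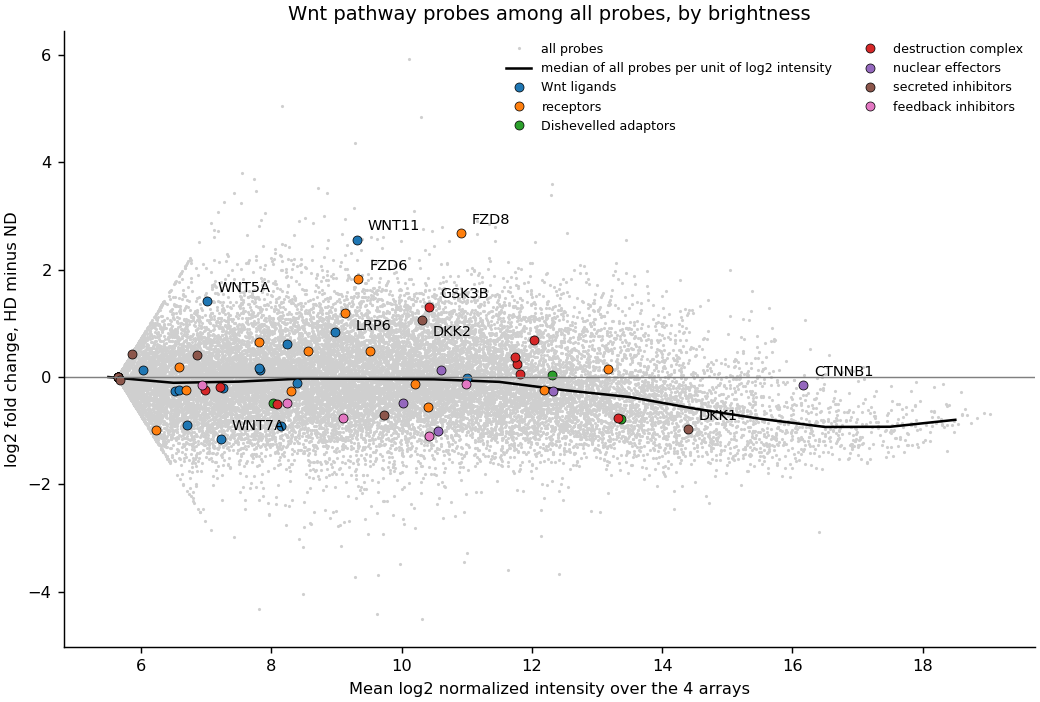
Log2 fold change (HD minus ND) against mean log2 normalized intensity over the 4 arrays for all 28264 probes (grey) and the 65 Wnt pathway probes (coloured by role). The black line, the median of all probes per unit of brightness, runs near 0 up to log2 intensity 11 and reaches -0.93 at 16 to 17, where CTNNB1 sits above it.

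Among the secreted inhibitors, 1 of 7 probes rose. DKK2, a dickkopf protein that binds LRP6, had 1946 and 1753 in HD, against 829 and 936 in ND, on its brighter probe (1.07, SE 0.103, adjusted p = 0.0430). Its dimmer probe had 124 and 145 in HD and 79.2 and 129 in ND, with overlap (0.41, adjusted p = 0.509). DKK1, the best known inhibitor of LRP6 and a beta-catenin target, had 17127 and 13935 in HD, against 28910.0 and 31245 in ND (-0.96, adjusted p = 0.0588). The HD values were below the ND values on both arrays, but the call did not pass. All probes of its brightness, log2 intensity 14 to 15, had a median of -0.59, and after quantile normalization DKK1 had a log2 fold change of -0.48. DKK3, a divergent dickkopf, had a log2 fold change of -0.70 with no overlap. It passed as lower after cyclic loess, with 75th percentile scaling and among probes above the lowest value on at least 2 arrays. SFRP1, a secreted decoy of Frizzled, was above the lowest value on 1 HD array only, SFRP2 on none, and SFRP4 lay between 50.1 and 52.7.

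The feedback inhibitors were not called on any of 5 probes. RNF43 and ZNRF3 are membrane ubiquitin ligases that remove Frizzled receptors, and NKD1 binds Dishevelled. NKD1's brighter probe had 1012 and 874 in HD, against 3219.8 and 1247 in ND (-1.09, adjusted p = 0.352), and the gap between the ND arrays was the widest of any member within a group. Its dimmer probe was at -0.49, the ZNRF3 probes at -0.13 (brighter) and -0.76 (dimmer), and RNF43 at -0.15. Across the members known as beta-catenin targets (AXIN2, NKD1, RNF43, ZNRF3, LGR5, LEF1 and DKK1), 0 of 10 probes passed limma's adjusted p. At limma's unadjusted p under 0.05, 2 (20.0%) were lower and 0 higher, against 19.4% and 16.2% of all probes. The target median was -0.37, against -0.02 for all probes, and -0.30 against 0.00 after quantile normalization. DKK1 and the brighter LEF1 probe lay at log2 intensity 14 to 15 and 12 to 13, where all probes had medians of -0.59 and -0.24. The HD arrays lay below the ND arrays for 6 of the 10 target probes and above for 1, where 34.8% and 24.9% of all probes did so. With 10 probes nothing particular to these targets is read from it. Other settings called some of them: AXIN2 higher and DKK1 lower after cyclic loess, DKK1 and LEF1 lower with 75th percentile scaling, DKK1, NKD1 and ZNRF3 lower among probes above the lowest value on at least 2 arrays, and DKK1 lower with an intensity trend in eBayes.

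A further 112 genes of the pathway were listed and 108 measured, each by its brightest probe. Of these, 9 rose and 7 fell, or 8.33% and 6.48%, close to the shares of all genes. The R-spondins are secreted proteins that keep Frizzled receptors at the surface through LGR receptors. RSPO2 had 9907 and 10374 in HD, against 1621 and 1916 in ND (2.52, adjusted p = 0.0307). RSPO3 had 75.6 and 90.7 in HD, against 441 and 473 in ND (-2.46, adjusted p = 0.0331). RSPO4 had 657 and 559.5 in HD, against 1362 and 1391 in ND (-1.18, adjusted p = 0.0412). Of 3 R-spondins called, therefore, 1 rose and 2 fell, while RSPO1 was at the lowest value on all arrays. KREMEN2, a DKK co-receptor, fell to 1815 and 1621 in HD, against 2857 and 2961 in ND (-0.76, adjusted p = 0.0435).

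In the cytoplasm, DACT1 and DACT3, which bind Dishevelled, fell. DACT1 had 1266 and 1038 in HD, against 3210.3 and 3354 in ND (-1.52, adjusted p = 0.0404), though its other probe was near the lowest value. DACT3 had 59.5 and 56.8 in HD, against 137 and 143 in ND (-1.27, adjusted p = 0.0269). CXXC4, a further Dishevelled-binding inhibitor, rose to 418 and 408 in HD, against 189.6 and 226 in ND, with a log2 fold change of 0.23 on its other probe. The kinase CSNK1G1 rose on its brightest probe (1.07) and had -0.26 on the other, and the deubiquitinase USP34, which acts on AXIN, rose by 1.47 (it is also on the list of long transcripts described with the series). Of the planar cell polarity genes, ANKRD6 (1.30) and PRICKLE2 (0.68) rose. Of the nuclear cofactors, the co-repressor CTBP2 (1.21) and TBL1XR1 (1.19, and 1.21 on its other probe) rose.

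Known target genes outside the members went both ways. BMP4, a secreted BMP ligand, had 683 and 603 in HD, against 3906 and 4042 in ND (-2.63, adjusted p = 0.0256). TBX3, a T-box transcription factor, had 2916 and 2246 in HD, against 876 and 765 in ND (1.64, adjusted p = 0.0473). CD44, an adhesion receptor, fell (-0.54, adjusted p = 0.0360), with its other probe at the lowest value on all arrays. Among 26 target genes measured, each by its brightest probe, 1 rose (3.85%) and 2 fell (7.69%), against 6.67% and 7.97% of all genes. Neither CCND1 (0.51, adjusted p = 0.113, and 0.93 after quantile normalization) nor MYC (-0.24, adjusted p = 0.267, and 0.03 after quantile normalization) passed. Dimmer probes of TNFRSF19 (1.30, adjusted p = 0.0281) and BIRC5 (-1.13, adjusted p = 0.0394) passed, while a further BIRC5 probe stood at 0.73. Outside the targets, the dimmer FRAT1 probe passed as lower (-1.21, adjusted p = 0.0256), with -0.33 on its brighter probe. The extracellular inhibitors outside the members gave 0 calls of 10, and WIF1, a secreted Wnt-binding protein, had 33836 and 35723 in HD, against 12875 and 16660 in ND (1.25, adjusted p = 0.0542). WIF1 met the study's criteria, and stood at 1.75 after quantile normalization. All probes of its brightness, log2 intensity 14 to 15, had a median of -0.59.

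**Figure D4:**
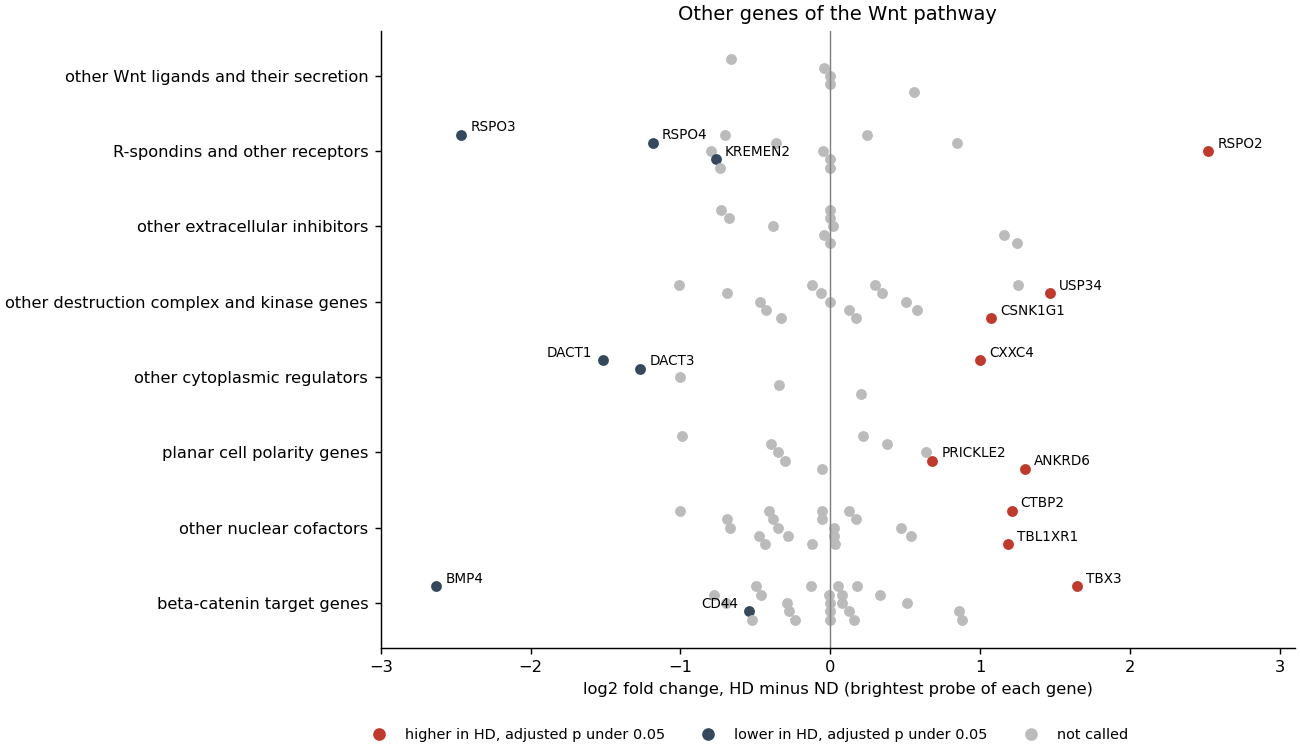
Log2 fold change (HD minus ND) of the 108 other Wnt pathway genes by list, each by its brightest probe. The 9 genes in red rose and the 7 in dark blue fell at an adjusted p under 0.05, with RSPO2 at 2.52 and BMP4 at -2.63 at the ends.

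Across the series the deposited columns shared a median of 361, and between 4414 and 5579 probes per array were at the lowest value. The HOXD10 probe was at that lowest value on all 4 arrays, so the arrays gave no reading of the transfected gene. No source used here places the probe against the insert. Apart from the arrays, the paper reports higher HOXD10 mRNA by qPCR and higher protein by western blot in transfected TOV112D cells. Of 8 epithelial markers, EPCAM (2.13) and KRT8 rose and KRT19 (-1.13) and CLDN4 (-0.70) fell. Both ND arrays read 50 for KRT8, so it was at least 2.03-fold higher in HD, measured against that floor. CDH1, a defining epithelial marker, was at the lowest value throughout. The summed epithelial level was 4266 and 3668 in HD, against 2233 and 2485 in ND. MUC16 was at the lowest value on all arrays and PAX8 on both HD arrays, in a Mullerian list summing to 843 and 919 in HD, against 1331 and 1423 in ND. No fibroblast marker of 7 passed, with sums of 75927 and 63267 in HD, against 59881 and 68335 in ND. Of 5 leukocyte markers PTPRC rose (1.55), with CD3E near and LYZ at the lowest value and sums of 2175 and 2323 in HD, against 2609 and 3346 in ND. The endothelial sums were 1038 and 1033 in HD, against 1360.0 and 1160.1 in ND. Genes with very long transcripts were listed after results were known, because such genes can move with RNA quality. Of 60 measured, 16 (26.7%) were called higher and 0 lower, against 6.67% and 7.97% of all genes. Their median was 0.52, against -0.05 for all genes. The part of these shifts in the Wnt pathway results was not tested.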

How the data were processed

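RNA of HD and ND cells (2 arrays each) was labelled with Cy5 and hybridised to Human Whole Genome OneArray chips (60-base probes). The authors scanned the slides with GenePix, and processed them in Rosetta Resolver with centring on the 75th percentile. Whether background was corrected is not given in the sources. They deposited a normalized intensity per probe on a linear scale, whose columns have a common median but different 75th percentiles. Such arrays have no read depth, and their number limits the precision. Gene names came from the platform annotation: 25893 probes had 1 symbol and 2371 had none.

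Intensities were taken to log2 without further scaling. HD was compared with ND by limma 3.58.1 in R 4.3.3 (lmFit and eBayes) over all 28264 probes, with Benjamini-Hochberg adjustment over all of them, and the scripts were tested on simulated data. For counts over genes, the probe of highest mean log2 intensity stood for its gene. Values are given for each member gene with a probe at an adjusted p under 0.05 or meeting the study's criteria and for a set of core members, and for up to 5 called genes per list of other pathway genes. Further genes were named after their values were seen. The members, lists and tests were chosen with earlier results of these data known, so no pattern here is independent support. Authors' tables of comparisons were not used. Alternatives covered scaling, an added 50, a filter on dim probes, the variance model, a replicate block, leaving out each array, the call rule and averaging probes.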

Additional observations from a re-analysis of the deposited data

How the results depend on the processing

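The 6 member probes called higher in HD were 8 after quantile normalization, 15 after cyclic loess, 12 with 75th percentile scaling, 11 among probes above the lowest value on at least 2 arrays, 1 (FZD8) with robust eBayes and 7 by the study's criteria. The 0 lower became 4, 6, 9 and 12 under those scalings and that filter in the same order, 2 with an intensity trend and 1 by the study's criteria. Calls over all probes moved too, from 1879 higher and 2033 lower in the main fit. They were 3300 and 2751 of 28264 after quantile normalization, 4973 and 3929 after cyclic loess, and 4256 and 5216 with 75th percentile scaling. With the filter they were 4042 and 5477 of 23902, and with robust eBayes 271 and 293 of 28264. For the other pathway genes, 9 were higher and 7 lower in the main fit. These became 17 and 13 after quantile normalization, 22 and 20 after cyclic loess, and 20 and 26 with 75th percentile scaling. They were 18 and 21 with the filter, and 2 and 2 with robust eBayes, while averaging probes gave 11 higher and 11 lower. The replicate block gave 0 calls in each direction, members and other pathway genes alike, as did leaving out each array in turn (0 to 0), and all these fits have 1 residual degree of freedom. The arrays share only a number (deviations of same-numbered arrays correlated at -0.32), and a crossed replicate block, chosen after seeing the data, also gave 0. The median over member genes was -0.13 with the filter and ranged over -0.13 to 0.00 without 1 array. CTNNB1 turned to 0.67 after quantile normalization and 0.64 after cyclic loess, APC to 0.0070 without ND replicate 2 (range without 1 array -0.50 to 0.0070) and AXIN1 to -0.14 without ND replicate 1 (-0.14 to 0.26). The log2 fold changes of the 6 called probes stayed above 0 in every alternative, FZD8 between 2.55 and 2.82 (adjusted p 7.04e-06 to 0.142) and WNT5A between 1.02 and 1.56. For each of the 6, both HD arrays lay above both ND arrays. Leaving out an array, a block or another variance model could therefore not change the sign. The causes were not tested.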

Other observations

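Probes were compared for genes with exactly 2 probes above the lowest value on some array. The probes of 2 of 11 such member genes (FZD5 and TNKS, 18.2%) differed in sign, against 33.7% of 4113 such genes. The median gap between a gene's probes was 0.63 on the log2 scale for members, against 0.45 for all such genes. Among the called genes, the WNT5A, GSK3B and DKK2 probes differed in call, and FZD8, FZD6 and WNT11 had a single probe each. Within groups, the median gap between replicate arrays over 57 member probes was 0.16 in HD and 0.28 in ND on the log2 scale, and over all 24855 such probes 0.18 in HD and 0.23 in ND. The widest member gaps were SFRP1 in HD (0.86) and NKD1 in ND (1.37).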
